A study of Mus musculus with 8 samples.

Results

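CXC chemokines are small secreted proteins that steer leukocytes, and 9 of their genes were followed in macrophages grown from wild-type mice and from mice labelled as lacking iNOS, the inducible nitric oxide synthase: Cxcl1, Cxcl2, Cxcl4, Cxcl5, Cxcl9, Cxcl10, Cxcl11, Cxcl14 and Cxcl16. Every probe whose gene symbol in the array table was one of these names was taken. This gave 9 probes for 8 of the 9 genes, with 2 probes for Cxcl14, among 25697 probes and 18138 gene symbols in all. Cxcl5 was not analysed here. Bone marrow cells of female C57bl/6J mice aged 8 weeks, either wild type (WT) or iNOS deficient (iNOS-/-), had grown for 7 days with GM-CSF at 10 ng/ml. The study calls the cells of such cultures bone marrow-derived macrophages. Cells were left unstimulated or received LPS at 200 ng/ml together with IFN-γ at 10 ng/ml for 6 h, the treatment that yields M1 macrophages. Each of the 4 combinations of genotype and treatment, all exposed to GM-CSF, was hybridised to 2 Illumina bead arrays, 8 arrays in total. The methods give the iNOS-deficient strain as B6.129P2-Nos2tm1Lau/J, which carries the disrupted Nos2 gene in every cell, while the labels name C57bl/6J for all samples. No label tells whether the arrays of a group came from separate mice, so p-values measure only the spread between arrays.

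Chemokines act through receptors on the migrating cell. Cxcl1 and Cxcl2 carry the ELR motif ahead of their paired cysteines and draw neutrophils through CXCR2, and their genes are classical targets of NF-κB downstream of Toll-like receptors. Cxcl9, Cxcl10 and Cxcl11 lack that motif, are induced by interferons, and bring activated T cells and NK cells by way of CXCR3. Cxcl4, also called platelet factor 4 (Pf4), is stored in platelet granules and is made by some macrophages as well. Cxcl16 is made as a membrane-bound protein that can be shed, and it binds CXCR6. Cxcl14 is a chemokine of resting epithelia and other tissues.

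Intensities were scaled between arrays, values under 1 were set to 1, and log2 was taken, so that 1 unit is a 2-fold difference. A probe counted as detected on an array at a detection p-value under 0.05. Of the 9 CXC chemokine probes, 8 were detected on at least 2 arrays and were tested with limma among 13868 probes (10163 gene symbols), and the Cxcl11 probe was not. A probe was called at an adjusted p under 0.05. Mean intensity per array lay between 155 and 224, the share of probes detected between 46.0% and 49.3%, and the scale factors between 0.813 and 1.30. Arrays of one group differed per probe by a median of 0.16 to 0.19 on the log2 scale and arrays of different groups by 0.34 to 0.82. The smallest of the latter, 0.34 to 0.36, were between iNOS-/- unstimulated and WT M1 arrays. The unstimulated arrays of the genotypes differed by more, 0.48 to 0.49, so differences at rest ran through the whole array. Of 10 macrophage markers on the array, 9 were detected on both arrays of every group, while Msr1 was undetected throughout, and 9 lymphocyte markers were undetected on all arrays. Nos2, which encodes iNOS, was undetected on the unstimulated arrays. After LPS plus IFN-γ its scaled intensity was 177 and 132 in WT M1 and 180 and 204 on the arrays labelled iNOS-/- M1, a log2 difference of 0.32 (SE 0.32, adjusted p = 0.445) that was not called. Its probe starts at base 3546 of the transcript, and whether that lies within the part disrupted in the mutant was not tested, so Nos2 does not check the genotype labels.

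Most of these genes lie on chromosome 5. In the RefSeq order along that chromosome, Pf4 (Cxcl4) comes first of the members measured here, followed by Cxcl1 and Cxcl2 and then by Cxcl9, Cxcl10 and Cxcl11, whereas Cxcl16 is on chromosome 11 and Cxcl14 on chromosome 13. The 250 bases ahead of the annotated start of Cxcl1, Cxcl2, Cxcl9 and Cxcl10 are shown because these 4 genes rose in both genotypes. Those of Cxcl4 are shown because this neighbour fell in WT cells. No window was available for Cxcl16, which also rose in both genotypes. The windows, from RefSeq on build GRCm38.p6, are chr5:90890995-90891244 (plus strand) for Cxcl1, chr5:90903649-90903898 (plus) for Cxcl2, chr5:92328080-92328329 (minus) for Cxcl9, chr5:92348890-92349139 (minus) for Cxcl10 and chr5:90772185-90772434 (plus) for Cxcl4. They run 5′ to 3′ in the direction of the gene. Capitals mark the letters GGNNNTTCC on either strand, a pattern typical of binding sites for Rel proteins (κB-like), and GAAANNGAA, a pattern typical of sites for IRF proteins (ISRE-like), which are the capitals nearest the 5′ end of Cxcl9 and of Cxcl10.
Cxcl1: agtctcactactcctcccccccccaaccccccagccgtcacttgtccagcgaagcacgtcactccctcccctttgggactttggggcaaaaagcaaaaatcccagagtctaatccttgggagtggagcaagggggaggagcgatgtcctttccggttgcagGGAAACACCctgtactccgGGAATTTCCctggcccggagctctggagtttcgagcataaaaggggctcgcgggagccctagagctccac
Cxcl2: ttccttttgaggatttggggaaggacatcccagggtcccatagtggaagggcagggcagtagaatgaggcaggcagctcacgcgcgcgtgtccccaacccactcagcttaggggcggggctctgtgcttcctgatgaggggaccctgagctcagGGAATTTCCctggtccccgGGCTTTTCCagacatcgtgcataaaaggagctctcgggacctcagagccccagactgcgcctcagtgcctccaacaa
Cxcl9: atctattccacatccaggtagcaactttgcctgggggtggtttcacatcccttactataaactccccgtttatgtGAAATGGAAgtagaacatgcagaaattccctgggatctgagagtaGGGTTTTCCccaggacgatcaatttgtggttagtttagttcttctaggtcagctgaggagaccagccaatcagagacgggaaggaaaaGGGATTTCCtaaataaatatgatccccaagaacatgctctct
Cxcl10: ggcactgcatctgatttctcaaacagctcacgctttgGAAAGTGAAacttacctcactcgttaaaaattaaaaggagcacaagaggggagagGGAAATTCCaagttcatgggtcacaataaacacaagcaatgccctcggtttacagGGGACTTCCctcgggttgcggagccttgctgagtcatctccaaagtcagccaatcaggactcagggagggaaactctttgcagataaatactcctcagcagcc
Cxcl4: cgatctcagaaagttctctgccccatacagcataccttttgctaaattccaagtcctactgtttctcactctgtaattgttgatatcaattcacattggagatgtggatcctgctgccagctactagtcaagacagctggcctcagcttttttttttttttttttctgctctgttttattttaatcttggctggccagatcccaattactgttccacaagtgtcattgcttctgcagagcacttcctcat
The κB-like letters were in the windows of Cxcl1, Cxcl2, Cxcl9 and Cxcl10 and in neither the Cxcl4 nor the Cxcl14 window, and 15.7% of 32851 RefSeq windows of the same length hold them. The longest run of letters that the Cxcl1 and Cxcl2 windows share is GGGAATTTCCCTGG, a stretch of 14 bases over one of these matches, which begins 71 bases before the start of Cxcl1 and 97 bases before that of Cxcl2. On either strand it is in 2 of the 32851 windows, those of Cxcl1 and Cxcl2 themselves. The ISRE-like letters were in the windows of Cxcl9, Cxcl10 and Cxcl14, against 7.13% of all windows. Letters TTCNNNGAA were searched as well and were found in the Cxcl14 window alone of the 6 member windows, against 7.02% of all windows. The letters searched were settled after these windows had been read, and no matches of different patterns overlap. A match describes letters in this window and says nothing about binding.

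The first question was how LPS plus IFN-γ moved the CXC chemokines in each genotype. In WT cells 5 of the 8 tested probes rose, those of Cxcl1, Cxcl2, Cxcl9, Cxcl10 and Cxcl16, and 2 fell, those of Cxcl4 and Cxcl14 probe 2. Over all 13868 probes 20.8% were called higher and 14.3% lower, 35.1% in either direction. On the arrays labelled iNOS-/- the same 5 genes rose and none fell, while 25.2% of all probes were called higher, 25.1% lower and 50.3% in either direction. The median log2 change of the 8 probes was 2.98 in WT, against 0.09 over all probes, and 3.54 in iNOS-/-, against 0.00. Cxcl14 probe 2 passed the detection filter through the WT unstimulated arrays alone, so it had to differ, and these counts and medians describe the probes without standing as support. Another scaling changed the split of all probes in WT: 59.3% of the called probes were higher, as against 44.4% under neqc and 47.4% under quantile normalization.

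**Figure D1:**
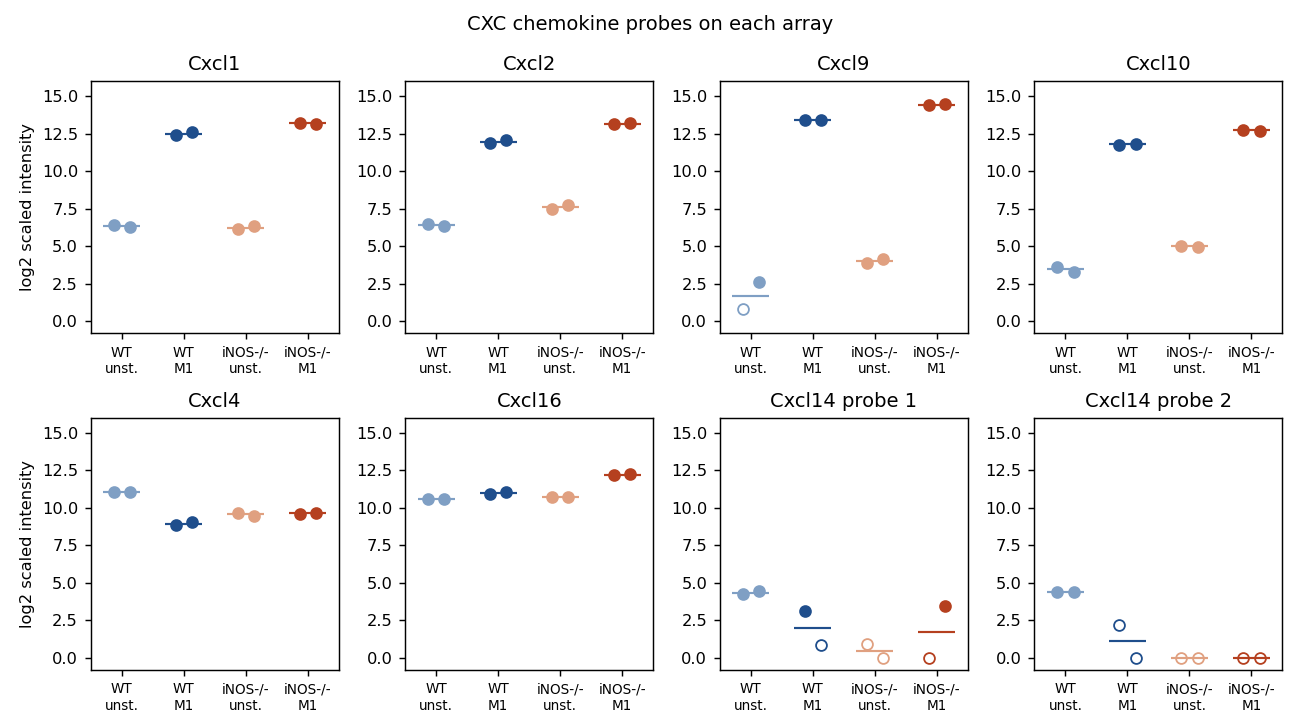
Log2 scaled intensity (vertical axis) of each tested CXC chemokine probe on the 2 arrays of each group (unst., unstimulated), with filled points detected, hollow points undetected and lines at group means. Cxcl1, Cxcl2, Cxcl9 and Cxcl10 stand far above their unstimulated levels on all M1 arrays, Cxcl4 is highest in WT unstimulated cells, and both Cxcl14 probes are detected on both arrays of that group only.

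The second question was how the genotypes differed. Between the M1 groups 5 of the 8 probes were higher on the arrays labelled iNOS-/-, those of Cxcl1, Cxcl2, Cxcl4, Cxcl10 and Cxcl16, and none was lower. The background was 22.9% of all probes higher, 25.3% lower and 48.2% in either direction. The median over the 8 probes was 0.82, against -0.03 over all probes. Between the unstimulated groups 3 probes were higher on the iNOS-/- arrays (Cxcl2, Cxcl9 and Cxcl10) and 2 lower (Cxcl4 and Cxcl14 probe 2), against 16.7% and 15.4% of all probes and 32.2% in either direction. The median there was 0.01 for the 8 probes and 0.00 over all. Cxcl14 probe 2 had to be lower there, since it passed the detection filter through the WT unstimulated arrays alone. These counts and medians are therefore a description. The response to LPS plus IFN-γ was called different between genotypes for 4 of the 8 probes. For Cxcl1, Cxcl4 and Cxcl16 the value was larger in iNOS-/-, and for Cxcl14 probe 2 the call set undetected arrays against each other and gives no direction. The background was 19.4% of all probes called larger in iNOS-/-, 22.6% smaller and 42% in either direction. These comparisons share arrays with each other. A line with an intercept in the scaling step turned the share of called probes that were higher from 47.5% to 58.4% between the M1 groups and from 46.1% to 59.7% for the difference of the responses.

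**Figure D2:**
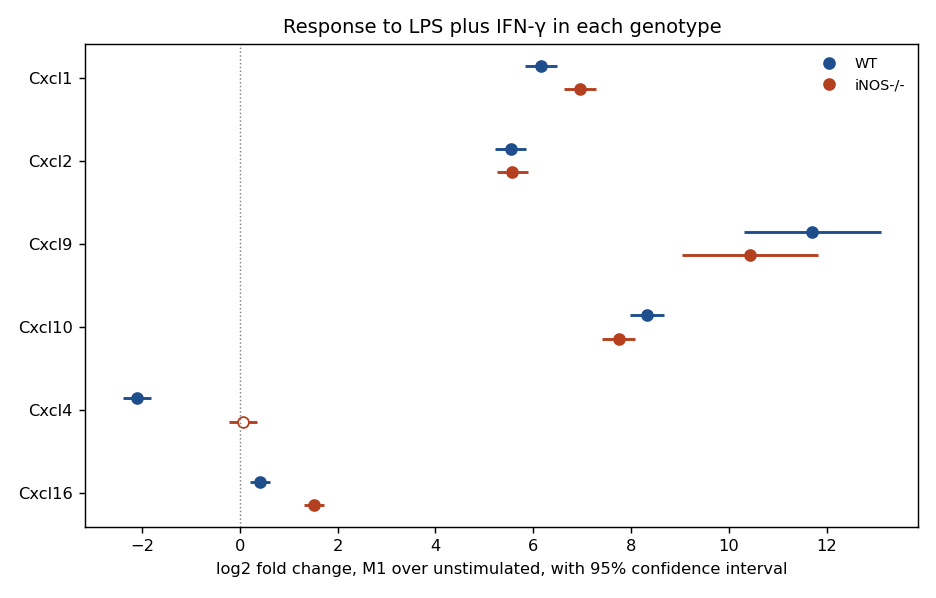
Log2 fold change of M1 over unstimulated arrays in WT and in iNOS-/- cells for the 6 CXC chemokines detected on at least 1 array of every group, with 95% confidence intervals and hollow points where limma made no call. Cxcl4 fell in WT, at -2.09, and was at 0.06 in iNOS-/- with this scaling, and its response and that of Cxcl16 lie apart between genotypes while those of Cxcl2 overlap.

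Cxcl1, a neutrophil attractant, was low in resting cells of both genotypes and rose steeply in both. Its scaled intensity was 85.5 and 75.4 in WT unstimulated, 70.0 and 79.4 in iNOS-/- unstimulated, 5341 and 6168 in WT M1 and 9637 and 8960 in iNOS-/- M1. The unstimulated groups overlapped, and both iNOS-/- M1 arrays lay above both WT M1 arrays. The rise was 71.5-fold in WT (95% confidence interval 57.0 to 89.6, adjusted p = 1.79e-05) and 125-fold in iNOS-/- (99.4 to 156, adjusted p = 1.50e-05). Between the M1 groups Cxcl1 was higher in iNOS-/- by 0.70 on the log2 scale (SE 0.13, adjusted p = 0.00848), and its response was larger by 0.80 (SE 0.18, adjusted p = 0.0197). Neqc and quantile normalization, which give all arrays 1 distribution of intensities, ended both calls: the M1 difference was then 0.11 (adjusted p = 0.423 and 0.498), and the difference of the responses 0.28 and 0.32. The latter call was also lost without WT unstimulated replicate 1, WT M1 replicate 1, iNOS-/- unstimulated replicate 1 or iNOS-/- M1 replicate 1, with values of 0.70 to 0.75 and adjusted p of 0.0567 to 0.0632. Unstimulated Cxcl1 differed by -0.11 (95% confidence interval -0.43 to 0.22, adjusted p = 0.584) between genotypes.

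Cxcl2, which also draws neutrophils, was already higher in resting iNOS-/- cells. Scaled intensities were 89.8 and 81.6 in WT unstimulated, 179 and 208 in iNOS-/- unstimulated, 3748 and 4201 in WT M1 and 8890 and 9527 in iNOS-/- M1. No 2 of the 4 groups overlapped. The genotypes differed by 1.17 before stimulation (SE 0.12, adjusted p = 0.00208) and by 1.21 after it (SE 0.12, adjusted p = 0.00107). The rise was 46.4-fold in WT and 47.6-fold in iNOS-/-. The difference of these responses was 0.04 (95% confidence interval -0.40 to 0.48, adjusted p = 0.879), and it turned to -0.35 under neqc and -0.47 under quantile normalization. Those scalings reduced the M1 difference to 0.67 each, which was still called. Of 10 granulocyte markers on the array, Mpo, Retnlg, Prtn3 and Ctsg were undetected on all arrays. Of the 6 tested, 3 were higher and none lower in iNOS-/- M1 than in WT M1, with log2 differences of 1.36 for S100a8, 2.35 for S100a9 and 0.59 for Ltf, while Ela2 was at 0.0040. Over all probes 22.9% were higher, 25.3% lower and 48.2% in either direction there. Between the unstimulated groups 5 of the 6 were higher in iNOS-/- and none lower, against 16.7% and 15.4% of all probes. Only 2 of the 10 markers were detected on both WT unstimulated arrays. The summed scaled intensity, of which S100a8 was the brightest part in every group, was 945 to 962 in WT unstimulated, 1597 to 1691 in iNOS-/- unstimulated, 1342 to 1462 in WT M1 and 3806 to 3922 in iNOS-/- M1. The part of these markers in the Cxcl1 and Cxcl2 values was not tested. In bulk RNA a different number of cells of a type cannot be told apart from a different amount of RNA per cell.

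Cxcl9, the interferon-γ-induced ligand of CXCR3, was near background in resting cells and very bright after activation. It was at 1.76 (undetected) and 5.98 in WT unstimulated, 14.9 and 17.4 in iNOS-/- unstimulated, 10595 and 10997 in WT M1 and 21416 and 22854 in iNOS-/- M1. The groups did not overlap, and 1 of the 2 WT unstimulated arrays detected the probe. Stimulation raised it by 11.70 on the log2 scale in WT (SE 0.55, adjusted p = 0.000155) and by 10.43 in iNOS-/- (SE 0.55, adjusted p = 0.000116). The size of the WT rise depended on the dim unstimulated arrays, at 8.97 under neqc. On the iNOS-/- M1 arrays 5 and 6 probes of the whole array were brighter, with deposited intensities of 19511 and 19025 for Cxcl9 and 21857 and 20853 for the brightest probe, so the signal stood close to the top of the range.

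The M1 difference of Cxcl9 between genotypes was 1.04 (95% confidence interval -0.36 to 2.43, adjusted p = 0.18), which was not called although all 4 arrays kept apart. The shared spread was carried by the dim WT unstimulated arrays, with an SD of 1.25 on the log2 scale there against 0.04 in WT M1 and 0.07 in iNOS-/- M1. Without either WT unstimulated array the same difference was called (adjusted p = 0.00436), and so it was with a floor of 16 (adjusted p = 0.000299) and under neqc (0.80, adjusted p = 8.89e-05), in 7 of 18 alternatives in all. Before stimulation Cxcl9 was higher in iNOS-/- by 2.31 (SE 0.55, adjusted p = 0.0287), close to the background. This fell to 0.06 with a floor of 16 (adjusted p = 0.544) and to 1.43 without WT unstimulated replicate 1. The call was lost without either array of iNOS-/- unstimulated, WT M1 or iNOS-/- M1, with adjusted p between 0.0526 and 0.117. The difference of the responses had no settled sign, at -1.27 (adjusted p = 0.247), -2.16 without WT unstimulated replicate 2 (adjusted p = 0.00439) and 0.98 with a floor of 16 (adjusted p = 0.00114).

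Cxcl10, the second CXCR3 ligand and a standard readout of interferon signalling, was higher in iNOS-/- both at rest and after activation. Its values were 12.4 and 9.64 in WT unstimulated, 32.1 and 30.8 in iNOS-/- unstimulated, 3483 and 3519 in WT M1 and 6888 and 6594 in iNOS-/- M1. All 4 groups kept apart. Stimulation raised Cxcl10 by 8.32 in WT and 7.74 in iNOS-/- on the log2 scale (SE 0.14 each, adjusted p = 1.20e-05 and 1.50e-05). At rest the iNOS-/- level was 2.88-fold that of WT (95% confidence interval 2.26 to 3.65, adjusted p = 0.00129), with a log2 difference of 1.52 that became 0.72 under neqc. After activation it was 1.93-fold (1.52 to 2.45, adjusted p = 0.00357), with a log2 difference of 0.94 that became 0.47 under neqc or quantile normalization and was called in all 18 alternatives. The response was smaller in iNOS-/- by 0.58 (95% confidence interval -1.07 to -0.09), which missed the call (adjusted p = 0.0622) but passed it without WT unstimulated replicate 1 (-0.76, adjusted p = 0.02) and under quantile normalization (-0.85, adjusted p = 0.0188). With a floor of 16 it was -0.031 (adjusted p = 0.689), under neqc -0.25 (adjusted p = 0.159) and with an intercept in the scaling -0.21 (adjusted p = 0.31). Cxcl11, the remaining CXCR3 ligand, was undetected on all 8 arrays, its deposited intensity running from -2.8 to 4.5.

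**Figure D3:**
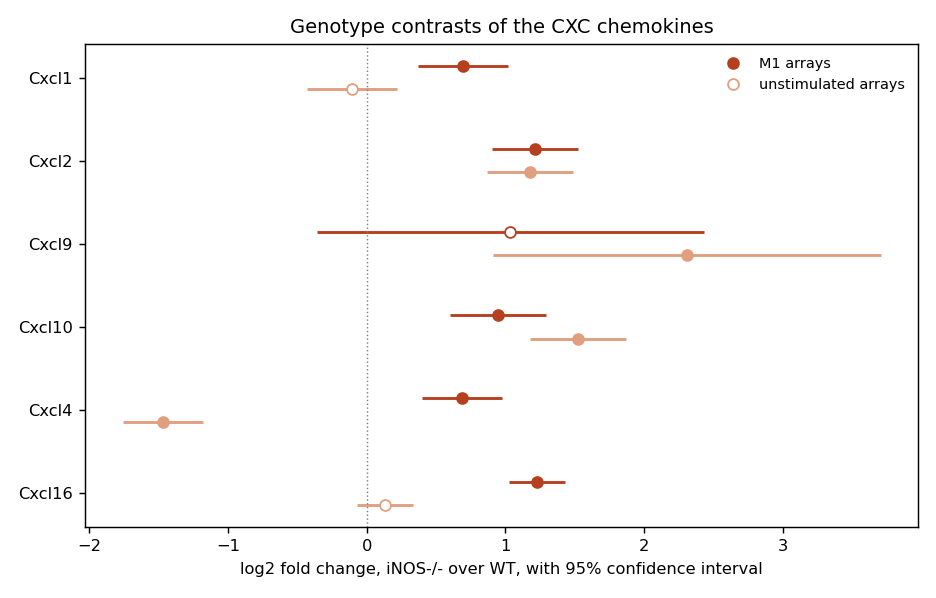
Log2 fold change of iNOS-/- over WT on the M1 and on the unstimulated arrays for the 6 CXC chemokines detected on at least 1 array of every group, with 95% confidence intervals and hollow points where limma made no call. Cxcl4 is lower at rest and higher after activation, Cxcl1 and Cxcl16 differ after activation, and Cxcl2 and Cxcl10 differ in both states.

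Cxcl4 behaved unlike the inducible members. Its scaled intensity was 2115 and 2073 in WT unstimulated, 454 and 529 in WT M1, 802 and 713 in iNOS-/- unstimulated and 778 and 801 in iNOS-/- M1. The WT unstimulated arrays stood highest and the WT M1 arrays lowest, while the iNOS-/- groups overlapped in between after scaling. In the deposited intensities the iNOS-/- groups did not overlap, at 939 and 877 unstimulated and 709 and 667 in M1. In WT the level fell by 2.09 on the log2 scale, 4.27-fold (SE 0.11, adjusted p = 0.000232). In iNOS-/- cells it changed by 0.06 (95% confidence interval -0.23 to 0.35, adjusted p = 0.681), which turned to -0.29 under neqc (adjusted p = 0.0405) and under quantile normalization (adjusted p = 0.078). Cxcl4 was 2.77-fold lower in resting iNOS-/- cells than in resting WT cells (log2 -1.47, SE 0.11, adjusted p = 0.000822) and 1.61-fold higher in M1 cells (log2 0.69, SE 0.11, adjusted p = 0.00567). The responses differed by 2.16 (SE 0.16, adjusted p = 0.000696), and all 17 alternatives called this difference, with values of 1.80 to 2.27. Platelet and megakaryocyte markers were looked at beside it. Of 7 on the array, Itga2b, Gp9, Gp1bb, Gp5 and Itgb3 were undetected on both WT unstimulated arrays, where Cxcl4 was highest, and Vwf was the brightest. The summed intensity of the 7 was 586 to 693 in WT unstimulated, 440 to 462 in WT M1, 506 to 528 in iNOS-/- unstimulated and 329 to 376 in iNOS-/- M1. Like Cxcl4, this sum, with Vwf its brightest part in every group, was highest in WT unstimulated. Of the 5 tested, 2 were higher and 1 lower in iNOS-/- unstimulated than in WT unstimulated, with a median log2 difference of 0.93. Over all probes 16.7% were higher and 15.4% lower there. On stimulation in WT 1 rose and 1 fell, with a median of 1.39, against 20.8% and 14.3% of all probes. The part of these markers in the Cxcl4 values was not tested.

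Cxcl16, the ligand of CXCR6, was well above background everywhere and was highest in iNOS-/- M1 cells. The arrays read 1514 and 1507 in WT unstimulated, 1651 and 1656 in iNOS-/- unstimulated, 1949 and 2085 in WT M1 and 4655 and 4796 in iNOS-/- M1. The groups did not overlap. Stimulation raised Cxcl16 by 1.51 in iNOS-/- (2.86-fold, SE 0.08, adjusted p = 0.000115), or 0.89 under neqc, and by 0.42 in WT (1.33-fold, SE 0.08, adjusted p = 0.0137). The WT rise was not present before scaling, where the deposited intensities were 1720 and 1689 without and 1661 and 1602 with stimulation. It was not called without WT unstimulated replicate 1 or 2 or WT M1 replicate 2 (adjusted p of 0.0612 to 0.0653) or on the 4 WT arrays alone (adjusted p = 0.0574). Between the M1 groups Cxcl16 was 2.34-fold higher in iNOS-/- (95% confidence interval 2.04 to 2.70, adjusted p = 0.000333), a log2 difference of 1.23 that became 0.71 under neqc. The responses differed by 1.10 (SE 0.11, adjusted p = 0.00168), called in all 17 alternatives but reduced to 0.46 under neqc and under quantile normalization. Unstimulated cells differed by 0.13 (95% confidence interval -0.07 to 0.33, adjusted p = 0.279), called at 0.26 under neqc (adjusted p = 0.0427).

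Cxcl14 was dim and was found mainly in resting WT cells. Probe 2 starts at base 602 of its transcript, and the array annotation gives it no chromosome, unlike probe 1. It read 20.5 and 21.0 in WT unstimulated and was undetected on the other 6 arrays. It was at least 4.15-fold lower in iNOS-/- unstimulated and at least 3.02-fold lower in WT M1 than in WT unstimulated, bounds set by the dimmest detected probes on those arrays. Since it was tested only because of its level in WT unstimulated cells, these bounds are a description, and the call in WT M1 was lost without WT unstimulated replicate 1 or 2. Probe 1, which starts at base 1591, read 19.1 and 21.4 in WT unstimulated, 8.69 and an undetected 1.82 in WT M1, no detected value in iNOS-/- unstimulated, and -1.10 (undetected) and 11.2 in iNOS-/- M1. It was at least 4.05-fold lower in iNOS-/- unstimulated than in WT unstimulated, and limma did not call this (adjusted p = 0.0773). It was called in 7 of 18 alternatives, among them those without iNOS-/- M1 replicate 1 or 2 (adjusted p = 0.0313) and neqc (adjusted p = 0.00078). Both probes thus put the gene above background on both arrays of WT unstimulated cells, and they disagreed on whether 1 of the 2 arrays of each M1 group held signal.

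**Figure D4:**
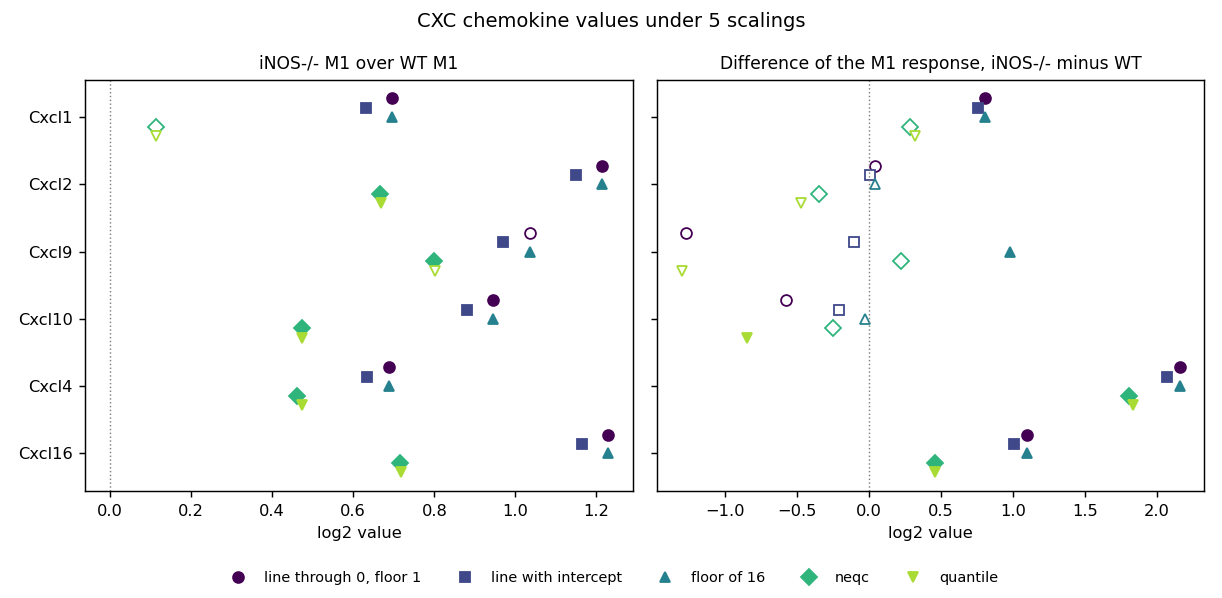
Log2 values of 6 CXC chemokines between the M1 groups (left) and for the difference of the M1 response (right) under 5 ways of scaling or flooring the intensities, with filled symbols called at an adjusted p under 0.05. Neqc and quantile normalization put the M1 differences of Cxcl1 at 0.11 and of Cxcl16 at 0.71 and 0.72, and Cxcl9 changes sign in the right panel.

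The differences between the M1 groups were also present before scaling. The deposited intensities of Cxcl1 were 8780 and 7459 in iNOS-/- M1 against 4549 and 4738 in WT M1, and those of Cxcl4 were 709 and 667 against 387 and 406. For Cxcl2, Cxcl9, Cxcl10 and Cxcl16 as well, both iNOS-/- M1 arrays lay above both WT M1 arrays in the deposited values. The iNOS-/- M1 arrays were also brighter as a whole, with mean deposited intensities of 224 and 208 against 167 and 155 in WT M1. The deposited values are therefore a description and do not stand as separate support. Of 11 dendritic cell markers, which activated macrophages can share, Flt3 was undetected throughout. Of the 9 tested, 5 were higher in iNOS-/- M1 than in WT M1 and 1 was lower. The lower one was Cd209a, which no iNOS-/- M1 array detected, and Itgax was at -0.44 (adjusted p = 0.0657). Over all probes 22.9% were higher, 25.3% lower and 48.2% in either direction in that comparison. Between the unstimulated groups 8 of the 9 were higher in iNOS-/- and none lower, with a median log2 difference of 3.79. There 16.7% of all probes were higher and 15.4% lower. The summed intensity of the 11 dendritic cell markers, with Ccl17 the brightest, was 960 to 974 in WT unstimulated, 14180 to 15060 in iNOS-/- unstimulated, 17270 to 17896 in WT M1 and 38462 to 40174 in iNOS-/- M1. The macrophage markers summed to 46717 to 46865, 39404 to 40307, 54971 to 55270 and 56195 to 58756 in the same order of groups, with Lyz the brightest. Between the M1 groups 3 of the 9 tested were higher in iNOS-/- (Cd14 by 1.45, Mertk by 0.99 and Emr1 by 0.41) and 4 lower (Csf1r at -1.29, Fcgr1 at -1.03, Cd68 at -0.92 and Itgam at -0.67). These counts stand beside the same 22.9% higher and 25.3% lower of all probes. Of 8 stromal markers Col1a1, Col3a1, Dcn, Lum and Pdgfra were undetected on all arrays, and their sum reached at most 51.6. The part of these marker levels in the chemokine values was not tested.

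CXC ligands outside the 9 genes were mostly silent. Of 6 on the array, Cxcl12, Cxcl13, Cxcl15 and Cxcl17 were undetected on all arrays. Cxcl3, a neutrophil attractant whose gene lies between Pf4 and Cxcl1, was detected in iNOS-/- M1 alone, at 7.57 and 15.5. It was at least 1.58-fold higher there than in WT M1 and at least 2.17-fold higher than in iNOS-/- unstimulated. It passed the detection filter through iNOS-/- M1 alone, so these bounds are a description. Ppbp, a platelet chemokine and neighbour of Pf4, was detected on all 8 arrays at 33.2 to 57.3 and was not called in any comparison. Its M1 difference was 0.42 (adjusted p = 0.135).

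Among the receptors, Cxcr4, which binds Cxcl12, was the one detected on all arrays. It read 960 and 845 in WT unstimulated, 176 and 175 in iNOS-/- unstimulated, 123 and 146 in WT M1 and 65.6 and 62.8 in iNOS-/- M1. Resting WT cells stood highest, as they did for Cxcl4. Cxcr4 was lower in iNOS-/- than in WT at rest (log2 -2.36, adjusted p = 0.000229) and after activation (log2 -1.06, adjusted p = 0.00153), and it fell by 2.75 on the log2 scale on stimulation in WT and by 1.45 in iNOS-/-. Il8ra (Cxcr1), a receptor of ELR chemokines, was detected in WT unstimulated cells alone, at 12.1 and 12.5, and was at least 2.45-fold lower in iNOS-/- unstimulated and at least 1.79-fold lower in WT M1. Cxcr5, the Cxcl13 receptor, was detected on both arrays of iNOS-/- M1, at 33.1 and 34.8, and on 1 iNOS-/- unstimulated array, at 5.77. It was at least 4.95-fold higher in iNOS-/- M1 than in WT M1. Il8ra and Cxcr5 would not have passed the filter without the group where each was highest, so their bounds are a description. Il8rb (Cxcr2) was detected on 1 array. Cxcr3, Cxcr6, Cxcr7 and Darc were undetected on all arrays, so the receptors of Cxcl9, Cxcl10 and Cxcl16 gave no measurable signal in these cells.

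Genes of the pathways that act on CXC chemokines were counted from lists drawn from general knowledge. Of 26 tested genes of LPS and NF-κB signalling, 20 were higher and 3 lower in iNOS-/- M1 than in WT M1, with a median log2 change of 0.98. The largest changes were in Nfkb2 (2.26), which encodes a Rel-family precursor, Tlr4 (-2.20), the LPS receptor, Nfkbib (2.04), an inhibitor of NF-κB, and Rel (1.87). On stimulation 10 rose and 3 fell in WT, and 20 rose and 3 fell in iNOS-/-. At rest 7 were higher and 7 lower in iNOS-/-. Of 17 tested genes of interferon signalling, 14 were higher and 1 lower between the M1 groups, with a median of 0.86. Irf7 (2.49) and Stat2 (1.51), both transcription factors of the interferon response, Ifnb1 (1.58), which encodes interferon β, and Ifngr1 (-2.18), a chain of the interferon-γ receptor, changed most. On stimulation 11 rose and 1 fell in WT, and 15 rose and 1 fell in iNOS-/-. At rest 8 were higher and 3 lower in iNOS-/-. The response differed upward in iNOS-/- for 13 and 10 genes of these lists and downward for 3 each. Over all probes 22.9% were higher and 25.3% lower between the M1 groups, with a median of -0.03. The shares were 20.8% and 14.3% for stimulation in WT, and 25.2% and 25.1% in iNOS-/-. At rest they were 16.7% and 15.4%, and for the difference of the responses 19.4% and 22.6%.

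Genes with the most similar pattern over the 8 arrays were found by Pearson correlation of log2 intensity among 12959 probes of other genes. The arrays fall into 4 groups, so these values rest mainly on the group levels and are a description. Cxcl1 was closest to Ccl4 (r = 0.997), Foxj3 and Il1a, Cxcl2 to Ptx3 (r = 0.999), Batf2 and Tnf, Cxcl10 to Tnf (r = 0.999), Sdc4 and Cxcl2, and Cxcl9 to Edn1 (r = 0.997), Sdc4 and Cxcl10. Between the 4 strongly induced members r lay from 0.983 to 0.997. Cxcl4 was closest to Mrps6 (r = 0.994), Maged1 and Chchd7. Cxcl16 was closest to Triobp (r = 0.998), LOC381302 and Trim26, and 4.99% of the candidates passed r = 0.95 with it, against 0.355% for Cxcl4. Cxcl14 probe 2 was closest to Cd180 (r = 0.998), Bex4 and Bhlhb3, and probe 1 to Tubb2b (r = 0.971), Golga4 and Wars2, with no gene in common.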

How the data were processed

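The authors deposited for every probe an intensity averaged over its beads, without normalization between arrays, and a detection p-value, the share of negative controls brighter than the probe. Per the labels the software was GenomeStudio, with limma 3.14.4, and the study's methods describe background subtraction, rank-invariant normalization, 1 in place of negative values and log2. Undetected probes lie around 0, so no background was subtracted again, although the file header states that none had been. The labels name both the MouseRef-8 and the MouseWG-8 array. A total of 0 value columns were left without a sample.

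Scaling brought every array to the mean of all arrays with a robust line through 0 (MASS 7.3.60.0.1, R 4.3.3) over probes whose ranks differed by less than 0.05 of the rank and lay between 0.5 and 0.9 of all probes. Values under 1 became 1. Probes that 2 or more arrays detected entered a one-way fit of the 4 groups over all 8 arrays (limma 3.58.1, Benjamini-Hochberg over 13868 probes). The steps were tried on simulated data in which few probes changed, as many up as down, in the iNOS-/- M1 group alone. Such data cannot test the scaling where a large share of probes differs, as it does here. Where no array of a group detected a probe, a fold is given as "at least", with each undetected value replaced by the array's dimmest detected intensity if that was higher. The number of arrays limits the precision.

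All member probes, Nos2, other CXC ligands and receptors are named, as are up to 4 of the largest called changes per list and comparison, and the 3 genes most like each member. Of several probes for 1 listed gene the brightest stands for it. Some genes of the lists are not reported here. Members and lists were chosen with earlier results of these data known. Promoters came from RefSeq tables, which matched 6 of the genes. Alternatives were neqc, quantile normalization, an intercept in the scaling line, a floor of 16, no detection filter or detection on at least 4 arrays, an intensity trend, the arrays of 1 comparison alone, a replicate block, 1 probe a gene, and each array left out.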

Additional observations from a re-analysis of the deposited data

Results flagged for a closer look

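The response to LPS plus IFN-γ differed between genotypes, by the limma contrast of the responses, for 3 CXC chemokines detected in every group. For Cxcl4 the difference was 2.16 on the log2 scale, between a change of -2.09 in WT and 0.06 in iNOS-/-. The latter change was -0.29 under neqc and quantile normalization. For Cxcl16 the difference was 1.10, between 0.42 and 1.51. It was reduced to 0.46 under neqc and quantile normalization, and the WT rise was not present before scaling. For Cxcl1 the difference was 0.80, between 6.16 and 6.96, and this one was not called under neqc or quantile normalization.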

How the results depend on the processing

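The number of CXC chemokine probes called stayed within 1.5 times the reported count under nearly every alternative. The exception was the difference of the responses without iNOS-/- unstimulated replicate 1, where the number was lower. Fits that each dropped 1 array leave 1 array in a group, so their counts are not given. With a replicate block the counts were 5 between the M1 groups, 5 between the unstimulated groups and 7 for stimulation in WT. They were 5 for stimulation in iNOS-/- and 3 for the difference of the responses, and no call other than that of Cxcl14 probe 2 was lost. The share of all probes called was then 45.3%, 28.1%, 31.0%, 47.7% and 38.4%, in the same order. It moved with the setting, to 54.7%, 40.9%, 44.5%, 58.0% and 51.0% under neqc. Without a detection filter it was 24.6%, 15.7%, 17.7%, 25.7% and 21.0%. The counts are therefore a description and no measure of stability. Deviations of same-numbered arrays correlated between -0.0375 and 0.0247, so no effect shared by a replicate number was seen. This does not tell whether same-numbered samples were handled together. Signs turned for values that were not called with the reported settings. Cxcl14 probe 1 between the M1 groups went from -0.25 to 0.056 under neqc, to 1.05 with an intercept and to between -1.99 and 1.49 with 1 array left out (above 0 without replicate 1 of either M1 group), and its change on stimulation in iNOS-/- ran from -0.46 (without iNOS-/- M1 replicate 2) to 3.03. Cxcl4 on stimulation in iNOS-/- went from 0.06 to -0.29 under neqc and quantile normalization and ran from -0.024 (without iNOS-/- unstimulated replicate 2) to 0.15 with 1 array left out. The difference of the responses went from 0.04 to -0.35 (neqc), -0.47 (quantile normalization) and -0.069 to 0.15 (1 array left out, below 0 for 4 arrays) for Cxcl2, and from -1.27 to 0.22 (neqc) and 0.98 (floor of 16) for Cxcl9. The cause was not tested. Of the other values 576 kept direction and call, 22 gained and 24 lost the call. With an intercept the median of all probes was 0.24 in place of -0.03 between the M1 groups, -0.12 in place of 0.00 between the unstimulated groups, -0.096 in place of 0.089 for stimulation in WT, 0.20 in place of 0.00 for stimulation in iNOS-/- and 0.33 in place of -0.05 for the difference of the responses. For stimulation in WT it was -0.035 under neqc and -0.062 under quantile normalization, and for stimulation in iNOS-/- -0.13 under quantile normalization. Signal near background limits Cxcl14, Cxcl11 and the unstimulated levels of Cxcl9 and Cxcl10.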

Other observations

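Of 10 tested genes that act on CXC chemokine mRNA or protein, 5 were higher and none lower in iNOS-/- M1 than in WT M1, where 22.9% of all probes were higher, 25.3% lower and 48.2% either. The largest change was in Zc3h12a (2.07 on the log2 scale), which encodes the ribonuclease regnase-1. Dpp4, whose protease product trims the N terminus of CXCR3 ligands, was undetected in WT unstimulated cells and was at least 79.7-fold higher in iNOS-/- unstimulated (adjusted p = 0.000566 from limma) and at least 70.9-fold higher in WT M1 (adjusted p = 0.000538).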
